A study of Homo sapiens with 8 samples.

Results

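The comparison described here set the 2 high dose arrays directly against the 3 low dose arrays, which are 5 of the 8 arrays of the series; the other 3 are untreated controls. All 8 carry RNA of MDA-MB-231, an established triple-negative breast cancer cell line that came from a pleural effusion, grows with a mesenchymal phenotype and carries a mutant p53. Cells were grown in medium with 7% serum, treated in flasks and collected after 24 h, and total RNA was hybridised to Affymetrix whole-transcript arrays. By their titles and the treatment protocol, the treated cells received an ethanol extract of wild yam root at 15 µg/mL (low) or 30 µg/mL (high), both chosen as sublethal, and the controls were not treated. The source names and treatment fields of the same samples name other agents: the low arrays are entered as 128 µg/mL of an extract of Boswellia serrata, the high arrays as 46 µg/mL of 3-O-acetyl-β-boswellic acid. The labels therefore do not settle whether the groups differ in the dose of 1 extract or in the agent, and here low dose and high dose serve only as group names. Nothing in the labels says that the arrays of a group came from separate cultures, so the p-values measure only the spread between these arrays, which may be technical.

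The question is which gene programmes separate the treated groups from each other. Dividing cells raise their genes in waves. The E2F factors drive the genes of DNA replication at entry into S phase, and the MuvB complex with B-MYB and FOXM1 drives the genes of G2 and mitosis, many through a short promoter element called the cell cycle genes homology region (CHR). Cells of this line also secrete and remodel collagen, fibronectin and other matrix proteins, a state held up by TGF-β signalling and the SNAIL factors. Metallothioneins are small zinc-binding and copper-binding proteins whose genes are switched on by the metal sensor MTF1.

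Genes were the rows with exactly 1 symbol, 1 row a symbol, which left 22109 of them. Values are log2 as the authors deposited them, and a difference of 1 is 2-fold. A gene was called at a Benjamini-Hochberg adjusted p under 0.05 in limma, fitted over all 8 arrays. Of the line's own marker genes, VIM lay at 8.68 to 9.10, AXL at 8.55 to 9.67 and MSN at 9.84 to 10.39 across the arrays. ESR1, the estrogen receptor that such cells lack, lay at 1.60 to 2.18, and the leukocyte gene PTPRC at 0.94 to 1.40, the endothelial gene CDH5 at 1.61 to 2.20 and the adipocyte gene ADIPOQ at 0.99 to 1.59. The markers did not sort cleanly by level. Among luminal genes, KRT19 (7.20 to 7.95), MUC1 (6.08 to 7.59), XBP1 (5.61 to 6.09), EPCAM (4.40 to 5.58), TFF1 (4.52 to 5.36) and KRT18 (4.16 to 4.86) overlapped or lay above the line markers S100A4 (4.42 to 5.08) and FSCN1 (4.33 to 5.28), and the macrophage gene CD68 lay at 7.68 to 8.46. Rows have different probes, so levels of different genes compare only roughly. The mean of the 10 line markers was 7.87, 7.91 and 7.61 in the low arrays and 7.61 and 7.42 in the high arrays. In bulk RNA, fewer cells of a type or phase and less RNA per cell cannot be told apart.

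Several arrays stand apart, and 1 of them bears on every result below. The upper quartile of the genes was 4.54 in low 3 and 4.54 in high 2, against 4.94 and 4.90 in the other low arrays and 4.80 in high 1. Among the controls it was 4.73 in control 3, against 4.92 in control 1 and 4.92 in control 2. Control 3 departs from the other controls in the direction that separates high from low. Over the 4961 genes with a mean of 5 or more, the deviation of control 3 from the mean of controls 1 and 2 correlated with high minus low at r = 0.72 (Spearman rho = 0.72), and over all 22109 genes at r = 0.48 (rho = 0.43). No array enters both sides of that correlation, which is across genes of the same table, and genes are not independent replicates. High minus low uses no control array, but control 3 widens the shared estimate of spread. What sets control 3 apart was not tested. For each list described below, the control 3 median is that of control 3 minus the mean of controls 1 and 2, which was -0.06 over all genes.

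**Figure D1:**
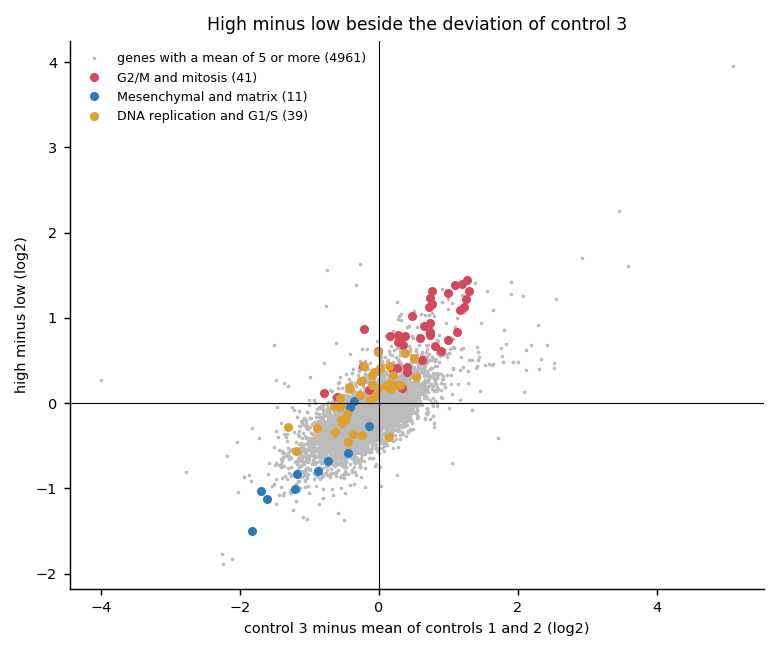
Each grey point is 1 of the 4961 genes with a mean log2 value of 5 or more; x is control 3 minus the mean of controls 1 and 2, y is high minus low, both in log2 units. G2/M genes (red) lie mostly at the upper right, matrix genes (blue) at the lower left and replication genes (orange) spread around 0, and the correlation over all points shown is 0.72.

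At the shared spread, 1 gene passed: MT1M, a metallothionein, rose in the high dose (0.00452% of genes called higher), and 0 fell (0% called lower). At an unadjusted p under 0.05, limma gave 566 higher genes (2.56%) and 1349 lower genes (6.1%). Both high arrays lay above all low arrays in 1940 genes (8.77%) and below them in 3701 (16.7%), and 85 genes (0.384%) were 2-fold or more higher and 83 (0.375%) 2-fold or more lower. Of all genes, 13620 (61.6%) had a difference below 0. The lean towards lower values depends on the scaling: higher genes made up 29.6% of those at p under 0.05 in the values as deposited, 51.1% after quantile normalization (1274 higher, 1217 lower) and 52.1% after subtracting array medians (1049 higher, 966 lower). The median difference of all genes was -0.07 as deposited and 0.01 with array medians subtracted. A fit on the 5 treated arrays alone called 29 genes higher (0.131%) and 24 lower (0.109%), and a fit without control 3 called 74 higher (0.335%) and 100 lower (0.452%). All 53 genes of the first of these fits were also called in the second. Both fits hold the same treated arrays and give the same differences, so they are not independent. Of those 53, control 3 deviated from the other controls in the high dose direction in 48, and by at least 2-fold in 35. The 5 exceptions were MT1M, MT1E, the heat shock gene HSPA6, GDF15 and the microRNA gene MIR197, all higher in the high dose.

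**Figure D2:**
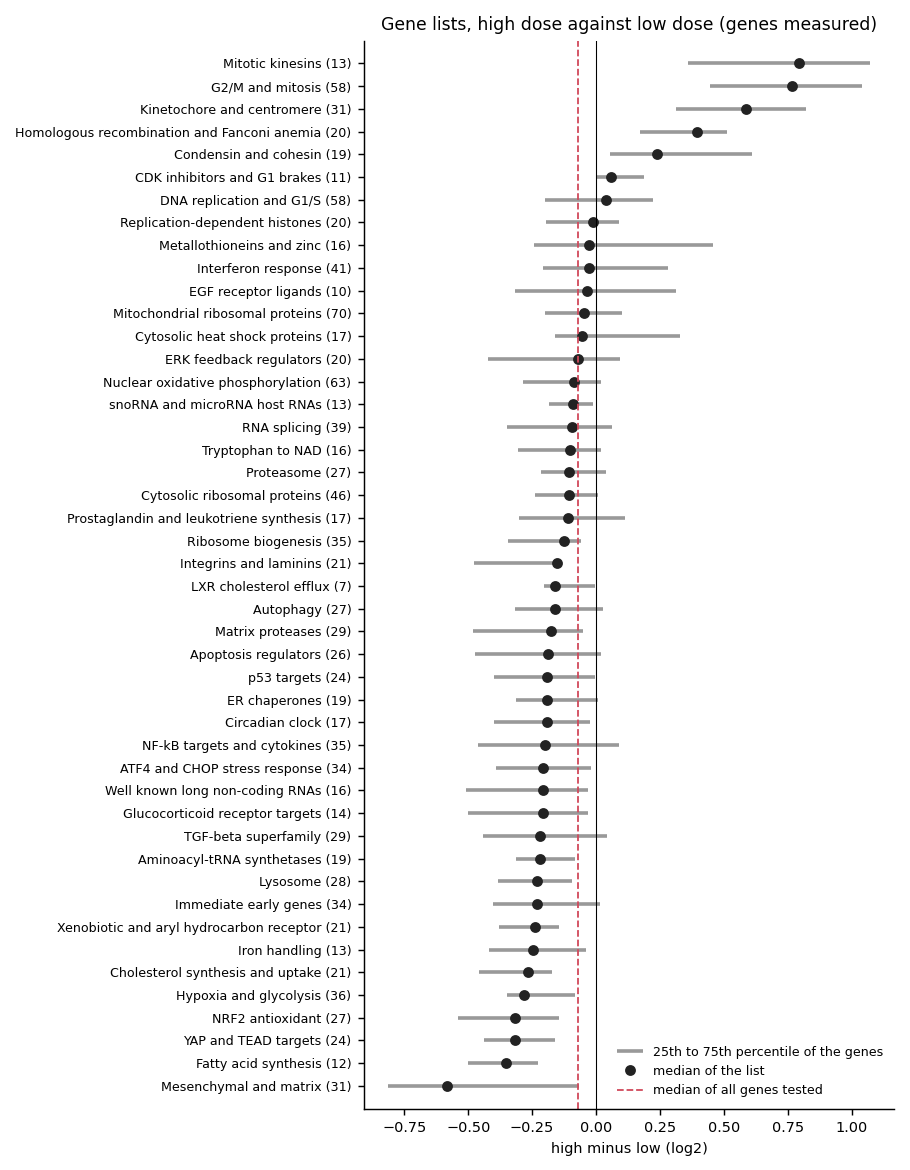
For 46 gene lists (number of measured genes in brackets), the point is the median of high minus low (log2) and the bar spans the 25th to 75th percentile of the genes; the dashed line is the median of all genes, -0.07. Mitotic kinesins (0.79), G2/M genes (0.76) and kinetochore genes (0.59) stand highest and the mesenchymal and matrix list (-0.58) lowest.

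The mitotic genes read higher in the high dose than in the low dose. All 58 measured genes of the G2/M list were higher in the high dose, with a median difference of 0.76, and 41 of them had an unadjusted p under 0.05 where 2.56% of all genes did; 0 passed the adjusted threshold. Both high arrays lay above all low arrays in 47 of the 58 (8.77% of all genes), and 16 were 2-fold or more higher. Against the mean of controls 1 and 2, the list's median was -0.99, -1.09 and -1.40 in the low arrays and -0.17 and -0.42 in the high arrays. Mitotic transcripts lay well below those controls in all low arrays and closer to them in the high arrays. In control 3 the same median was 0.60, with 47 of the 58 genes above both other controls (7631 of all 22109 genes were).

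CDK1, the kinase whose activity starts mitosis, read 6.10, 6.10 and 7.30 in the controls, 4.81, 4.70 and 4.49 in the low dose and 6.16 and 5.95 in the high dose. Its high arrays matched controls 1 and 2, all low arrays lay more than 1 log2 unit lower, and control 3 was the highest array. The high minus low difference was 1.39 ± 0.32 (SE), with a limma adjusted p of 0.303. TOP2A, the topoisomerase that untangles chromosomes before they separate, read 8.95, 8.76 and 9.85 in the controls, 7.69, 7.57 and 7.36 in the low dose and 8.95 and 8.71 in the high dose. The order of the groups was the same, without overlap of high and low, and the difference was 1.29 ± 0.28 (SE) (adjusted p = 0.300). DLGAP5, a spindle microtubule protein, read 7.0, 7.03 and 8.28 in the controls, 5.80, 5.69 and 5.36 in the low dose and 7.21 and 6.91 in the high dose. Again high 1 and high 2 lay beside controls 1 and 2, for a difference of 1.44 ± 0.34 (SE) (adjusted p = 0.307). NEK2, a centrosome kinase, had the largest difference of the list at 1.57 ± 0.39 (SE). Cyclins followed: CCNB1 differed by 1.16, CCNB2 by 1.13 and CCNA2 by 1.02. PLK1, a kinase active throughout mitosis, differed by 0.87 and FOXM1 by 0.68. CDC20, an activator of the anaphase-promoting complex, was not separated: it read 7.66, 7.62 and 6.85 in the controls, 6.62, 6.47 and 5.89 in the low dose and 6.48 and 6.41 in the high dose, a difference of 0.12 with overlapping arrays. The Aurora kinases differed by less than those above, AURKA by 0.37 and AURKB by 0.43.

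Structural parts of the mitotic apparatus went the same way (of all genes, 38.4% were higher, and 2.56% higher at an unadjusted p under 0.05). Of 31 kinetochore and centromere genes, 30 were higher, 19 at an unadjusted p under 0.05, with a median of 0.59 (control 3 median 0.41). NDC80, which holds microtubules at the kinetochore, read 5.84, 5.81 and 7.20 in the controls, 4.36, 4.52 and 3.94 in the low dose and 5.65 and 5.71 in the high dose, a difference of 1.41 ± 0.36 (SE) without overlap of high and low; control 3 again stood highest. NUF2, its partner in the same complex, differed by 1.31. All 13 mitotic kinesins, the motors of the spindle, were higher, 9 at p under 0.05, with a median of 0.79 (control 3 median 0.52), and KIF14 and KIF20A differed by 1.19 and 1.15. In the condensin and cohesin list, 15 of 19 were higher, 6 at p under 0.05 (control 3 median 0.21); these included the condensin subunits SMC4 (0.89), NCAPH (0.84) and NCAPG (0.88). Of 20 homologous recombination and Fanconi anemia genes, 18 were higher and 4 reached p under 0.05, with a median of 0.39; here control 3 lay slightly below the other controls (median -0.13). Without control 3, limma called 18 of the 58 G2/M genes higher, where it called 0.335% of all genes higher. With the 5 treated arrays alone it called 10, where it called 0.131% of all genes higher. Among those 10 were CDK1, CCNB2, TOP2A, NEK2 and DLGAP5.

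Replication genes lay on both sides of 0. The DNA replication and G1/S list had 58 measured genes, 31 higher and 27 lower, with a median of 0.04. At an unadjusted p under 0.05, 5 were higher and 1 was lower (8.62% and 1.72%, against 2.56% and 6.1% of all genes). Its median against controls 1 and 2 was -0.87, -0.94 and -1.28 in the low arrays and -0.84 and -1.13 in the high arrays, so both treated groups lay below those controls, over overlapping ranges. In control 3 it was -0.27, with 39 of the 58 genes below both other controls (10360 of all 22109 genes were). MCM10, needed to activate the replicative helicase, read 6.72, 6.67 and 6.27 in the controls, 5.36, 5.25 and 4.84 in the low dose and 5.43 and 5.26 in the high dose, with overlapping treated arrays and a difference of 0.19 ± 0.21 (SE) (95% interval -0.27 to 0.66). MCM6, a subunit of that helicase, read 6.81, 6.84 and 6.39 in the controls, 5.94, 5.93 and 5.60 in the low dose and 5.46 and 5.27 in the high dose; it was the 1 lower gene at p under 0.05, with a difference of -0.46 ± 0.20 (SE) (adjusted p = 0.564). CDC6, which loads the helicase, differed by -0.20 and PCNA, the polymerase clamp, by 0.18. Some members did sit higher: RFC3, a subunit of the clamp loader, read 6.94, 6.99 and 7.34 in the controls, 6.0, 5.83 and 5.68 in the low dose and 6.56 and 6.29 in the high dose and differed by 0.59 ± 0.19 (SE), and CDC7, a kinase that fires origins, by 0.60. Replication-dependent histones had a median of -0.01 (20 genes; control 3 median 0.06) and CDK inhibitors 0.06 (11 genes; control 3 median -0.29). CDKN1A, which encodes the CDK inhibitor p21, read 4.62, 4.33 and 3.27 in the controls, 6.34, 6.18 and 5.70 in the low dose and 5.38 and 5.38 in the high dose; both treated groups lay above all controls and the high arrays lay below the low arrays, for a difference of -0.69 ± 0.34 (SE) (limma adjusted p = 0.600).

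**Figure D3:**
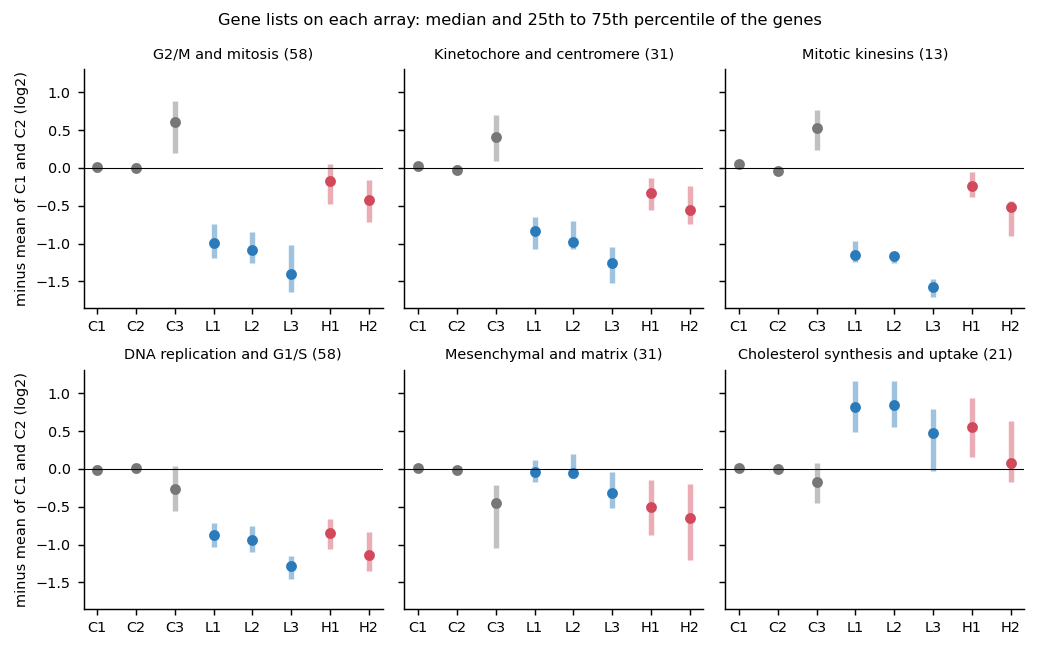
For 6 gene lists, each point is the median of the genes on 1 array minus the mean of controls 1 and 2 (log2), and the bar spans the 25th to 75th percentile of the genes; C, L and H are control, low and high arrays. The low arrays sit between -0.99 and -1.40 for G2/M genes and the high arrays at -0.17 and -0.42, while for replication genes the treated arrays overlap.

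Promoters of the G2/M and replication lists are shown because these lists belong to the promoter classes named above, and the windows cover the 250 bases before the start site in RefSeq (GRCh38.p14). Searches covered both strands for the CHR (TTTGAA or TTCGAA), the CCAAT box (CCAAT) and the E2F element (TTCGCGC or TTGGCGC or TTCCCGC). In the first 3 sequences capitals mark CHR and CCAAT matches on either strand, and in the next 2 they mark E2F matches, which overlap in pairs in MCM6.
CDK1, chr10:60778081-60778330, plus strand: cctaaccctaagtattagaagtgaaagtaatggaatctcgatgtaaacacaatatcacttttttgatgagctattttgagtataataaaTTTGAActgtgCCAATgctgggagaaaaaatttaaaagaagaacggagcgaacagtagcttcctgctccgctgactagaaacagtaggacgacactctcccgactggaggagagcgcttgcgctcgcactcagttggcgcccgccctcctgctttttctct
TOP2A, chr17:40417897-40418146, minus strand: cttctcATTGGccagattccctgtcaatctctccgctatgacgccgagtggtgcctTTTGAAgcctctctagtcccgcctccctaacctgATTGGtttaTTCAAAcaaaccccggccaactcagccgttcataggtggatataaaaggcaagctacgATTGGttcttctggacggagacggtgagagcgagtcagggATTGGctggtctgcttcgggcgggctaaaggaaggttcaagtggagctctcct
DLGAP5, chr14:55191586-55191835, minus strand: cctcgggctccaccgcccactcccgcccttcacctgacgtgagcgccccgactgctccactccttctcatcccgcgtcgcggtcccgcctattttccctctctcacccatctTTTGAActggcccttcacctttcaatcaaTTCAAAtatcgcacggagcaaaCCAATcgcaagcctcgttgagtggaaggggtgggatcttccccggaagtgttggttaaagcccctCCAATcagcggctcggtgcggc
MCM6, chr2:135876444-135876693, minus strand: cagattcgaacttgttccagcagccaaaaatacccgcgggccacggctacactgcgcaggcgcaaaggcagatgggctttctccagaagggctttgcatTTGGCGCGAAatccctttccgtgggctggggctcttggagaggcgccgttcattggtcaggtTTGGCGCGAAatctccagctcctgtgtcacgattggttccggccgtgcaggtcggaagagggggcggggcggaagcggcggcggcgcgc
RFC3, chr13:33817899-33818148, plus strand: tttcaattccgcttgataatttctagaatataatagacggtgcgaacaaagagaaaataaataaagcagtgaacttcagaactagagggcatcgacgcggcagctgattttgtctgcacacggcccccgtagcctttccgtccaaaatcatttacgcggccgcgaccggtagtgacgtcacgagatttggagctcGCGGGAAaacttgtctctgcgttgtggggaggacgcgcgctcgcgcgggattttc

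A promoter was matched for 45 of the 58 G2/M genes and 48 of the 58 replication genes. A CHR match stood in 25 of those 45 (55.6%) and in 2 of those 48 (4.17%), against 14.6% of all 27305 promoters of the table. E2F matches stood in 9 of 45 (20%) and 25 of 48 (52.1%), against 9.51% of all. CCAAT matches stood in 34 of 45 (75.6%) and 26 of 48 (54.2%), against 33% of all, and CHR and CCAAT together in 23 of 45 (51.1%) and 2 of 48 (4.17%), against 5.24% of all. Over the 15336 tested genes with a promoter, the shares were 12.3% for the CHR, 12.3% for E2F, 34.1% for CCAAT and 4.66% for CHR and CCAAT together. The structural lists were mixed: CHR matches stood in 6 of 13 kinesin promoters (46.2%) but in 4 of 25 kinetochore promoters (16%, near the share of all), and E2F matches in 2 of 13 (15.4%) and 8 of 25 (32%). Kinetochore genes also read higher in the high dose, and whether promoter matches bear on the differences was not tested. Both MCM6, which was lower, and RFC3, which was higher, hold E2F matches. A match describes the letters of the window and is not a measured binding site.

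Mesenchymal and matrix genes were lower in the high dose. Of 31 measured genes, 27 were lower, with a median of -0.58; 14 had an unadjusted p under 0.05 (6.1% of all genes were lower at that level), 17 had both high arrays below all low arrays (16.7% of all genes), 6 were 2-fold or more lower and 0 passed the adjusted threshold. Against controls 1 and 2 the median was -0.04, -0.06 and -0.31 in the low arrays and -0.50 and -0.65 in the high arrays. In control 3 it was -0.45, and 26 of the 31 genes were below both other controls there (10360 of all 22109 genes were). Low 1 and low 2 thus lay near controls 1 and 2, and the high arrays nearer control 3. Low 3 lay between controls 1 and 2 and control 3.

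THBS1, a secreted glycoprotein that activates latent TGF-β, read 9.78, 9.77 and 7.94 in the controls, 9.38, 9.37 and 9.18 in the low dose and 8.07 and 7.54 in the high dose. The high arrays and control 3 were all below the other 5 arrays, and high minus low was -1.50 ± 0.45 (SE) (limma adjusted p = 0.399). FN1, fibronectin, read 10.08, 10.05 and 8.46 in the controls, 10.19, 10.14 and 10.07 in the low dose and 9.25 and 8.77 in the high dose, with the same arrangement and a difference of -1.12 ± 0.40 (SE). Among collagens, COL6A3 read 5.62, 5.51 and 3.56 in the controls, 5.66, 5.57 and 5.11 in the low dose and 4.16 and 3.52 in the high dose (-1.60, SE 0.51), and COL5A1 differed by -1.32. In those 4 genes control 3 held a high dose level. COL1A1, the main fibrillar collagen chain, was arranged otherwise: 3.44, 3.24 and 3.16 in the controls, 4.08, 4.12 and 3.91 in the low dose and 3.40 and 3.11 in the high dose. Its low arrays were above every control and its high arrays lay at the level of the controls, a difference of -0.78 ± 0.18 (SE) (adjusted p = 0.300). SNAI1, a repressor of epithelial genes, read 3.65, 3.67 and 3.04 in the controls, 4.29, 4.39 and 4.0 in the low dose and 3.30 and 3.27 in the high dose, also with all low arrays above all controls, and differed by -0.94 ± 0.22 (SE); SNAI2, its relative, differed by -1.01. VIM, the mesenchymal intermediate filament, read 8.99, 9.10 and 8.68 in the controls, 8.96, 8.93 and 8.70 in the low dose and 8.96 and 8.82 in the high dose: the arrays overlapped and the difference was 0.03 (95% interval -0.38 to 0.43).

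The TGF-β list held the largest lower differences. TGFBI, a matrix protein induced by TGF-β, read 5.49, 5.66 and 2.86 in the controls, 5.60, 5.79 and 5.32 in the low dose and 3.19 and 3.24 in the high dose. High arrays were more than 2 log2 units below every low array and below controls 1 and 2, and control 3 was lower still; the difference was -2.35 ± 0.64 (SE) (adjusted p = 0.367 with all arrays). PMEPA1, a feedback inhibitor of the pathway, read 5.93, 5.86 and 3.79 in the controls, 6.17, 6.25 and 5.85 in the low dose and 4.53 and 3.99 in the high dose, a difference of -1.82 ± 0.51 (SE) with control 3 the lowest array. Both were called lower in the fit on the 5 treated arrays alone and in the fit without control 3, which hold the same treated arrays. Among ligands, TGFB2 differed by -0.53, TGFB1 by -0.57 and INHBA, the activin A subunit, by -0.75; the inhibitory SMAD7 differed by -0.63. Over the 29 genes of the list, 7 were lower and 1, GDF15, was higher at an unadjusted p under 0.05 (24.1% and 3.45%, against 6.1% and 2.56% of all genes), with a median of -0.22 and a control 3 median of -0.20. Matrix proteases and their inhibitors had 27 of 29 genes lower (61.6% of all genes were), 5 at p under 0.05 (17.2%), with a median of -0.18 and a control 3 median of -0.28, among them ADAMTS12 (-1.25), ADAMTS6 (-1.44) and the inhibitors TIMP2 (-0.57) and TIMP1 (-0.97). MMP1, interstitial collagenase, read 7.05, 6.95 and 6.90 in the controls, 8.37, 8.21 and 8.02 in the low dose and 8.17 and 8.19 in the high dose: both treated groups were above all controls and did not separate from each other (-0.03, 95% interval -0.40 to 0.34). Integrins and laminins had 18 of 21 lower, 5 at p under 0.05 (23.8%), led by ITGB3 (-0.81); the median was -0.15 and the control 3 median, at -0.37, was further from 0. YAP and TEAD targets had 23 of 24 lower, 3 at p under 0.05 (12.5%), with a median of -0.32. In control 3 that list's median was -0.46, and 23 of the 24 were below both other controls (10360 of all 22109 genes were). CCN2, a classic member, read 7.69, 7.73 and 6.57 in the controls, 6.10, 6.10 and 5.78 in the low dose and 6.08 and 5.73 in the high dose and differed by -0.09. L1CAM, an adhesion molecule outside these lists and named after its values were seen, read 5.08, 4.90 and 2.24 in the controls, 5.34, 5.26 and 4.43 in the low dose and 2.61 and 2.91 in the high dose, a difference of -2.25 ± 0.67 (SE).

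**Figure D4:**
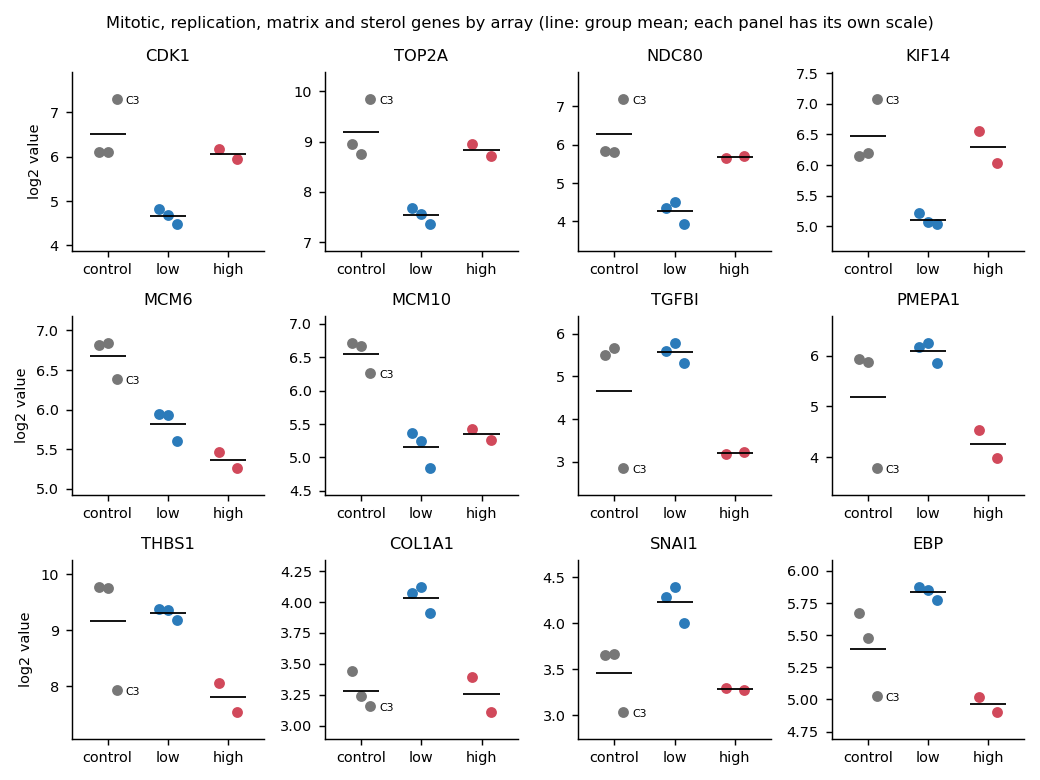
Log2 values of 12 genes on each array (points; grey control, blue low, red high; the line is the group mean and each panel has its own scale), with control 3 labelled C3. High arrays lie beside controls 1 and 2 for CDK1 and TOP2A, whereas for TGFBI, PMEPA1 and THBS1 the high arrays lie beside control 3.

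Metallothionein genes gave the gene that passed the test. MT1M read 1.38, 1.33 and 1.12 in the controls, 1.50, 1.29 and 1.14 in the low dose and 3.24 and 2.96 in the high dose. Both high arrays stood more than 1 log2 unit above the other 6, which overlapped, and control 3 stood at the low end. The difference was 1.79 ± 0.18 (SE) (95% interval 1.39 to 2.19; limma adjusted p = 0.0200). The call was lost when any array but control 3 was left out: the limma adjusted p was 0.0600 and 0.0610 without control 1 or 2, 0.0753, 0.190 and 0.137 without low 1, 2 or 3, and 0.137 and 0.226 without high 1 or 2, with differences from 1.65 to 1.93. Without control 3 it was 0.00168. The low and control values of MT1M lie below the lower quartile of every array (1.64 to 1.72) and near those of absent markers such as PTPRC, so the probe is not shown to be above background there. With dim genes left out, MT1M was itself removed (mean over the arrays 1.75, where the median gene had 2.75). MT1E read 3.48, 4.75 and 3.85 in the controls, 5.25, 5.39 and 4.67 in the low dose and 6.94 and 6.53 in the high dose, with all high arrays above all low arrays and a difference of 1.63 ± 0.34 (SE) (adjusted p = 0.300). MT1F read 2.91, 2.85 and 2.63 in the controls, 3.89, 3.85 and 3.31 in the low dose and 4.29 and 5.15 in the high dose; the groups were ordered control, low and high without overlap, and high minus low was 1.04 ± 0.26 (SE). Other members did not separate the groups: MT1X read 8.31, 8.53 and 7.11 in the controls, 9.13, 8.90 and 8.84 in the low dose and 9.31 and 9.02 in the high dose (0.21, 95% interval -0.55 to 0.96) and MT2A read 7.07, 6.97 and 6.54 in the controls, 7.12, 7.02 and 6.89 in the low dose and 7.30 and 7.0 in the high dose (0.14, 95% interval -0.30 to 0.58). MT1H differed by -0.44 from values near the bottom of the scale. The metallothionein genes are near-identical neighbours on chromosome 16, so their probes may share transcripts and the split between members is uncertain.

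Zinc transporters differed in both directions. SLC30A1, the zinc exporter at the cell surface, read 6.62, 6.67 and 6.95 in the controls, 6.81, 6.73 and 6.61 in the low dose and 7.47 and 7.36 in the high dose. Its high arrays were above all other arrays, for a difference of 0.70 ± 0.17 (SE) (adjusted p = 0.331). SLC39A14, a zinc and iron importer, read 6.03, 5.93 and 4.93 in the controls, 6.30, 6.45 and 6.09 in the low dose and 5.59 and 5.16 in the high dose, a difference of -0.91 ± 0.30 (SE) with control 3 the lowest array. MTF1 itself differed by -0.28. Over the 16 measured genes of the list, 4 were higher (MT1M, MT1E, MT1F and SLC30A1) and 2 lower (SLC39A14 and MT1H) at an unadjusted p under 0.05. These were 25% and 12.5%, against 2.56% and 6.1% of all genes. The list's median was -0.03 (control 3 median -0.25). The promoter of SLC30A1 is shown as that of a higher member. Capitals mark a match to the metal response element (TGCACNC or TGCGCNC, both strands). That element stood in 7 of the 10 promoters matched for the list, in 24.7% of all and in 29.1% of those of tested genes. MT1M, MT1E and MT1F are not among the 10, and the element also stood in 40% of G2/M and 43.8% of replication promoters.
SLC30A1, chr1:211579162-211579411, minus strand: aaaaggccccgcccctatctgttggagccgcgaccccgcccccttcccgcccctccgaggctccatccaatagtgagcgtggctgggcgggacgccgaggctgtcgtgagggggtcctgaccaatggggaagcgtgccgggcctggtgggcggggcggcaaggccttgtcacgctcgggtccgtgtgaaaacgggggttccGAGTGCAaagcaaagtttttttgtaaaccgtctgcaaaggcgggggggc

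**Figure D5:**
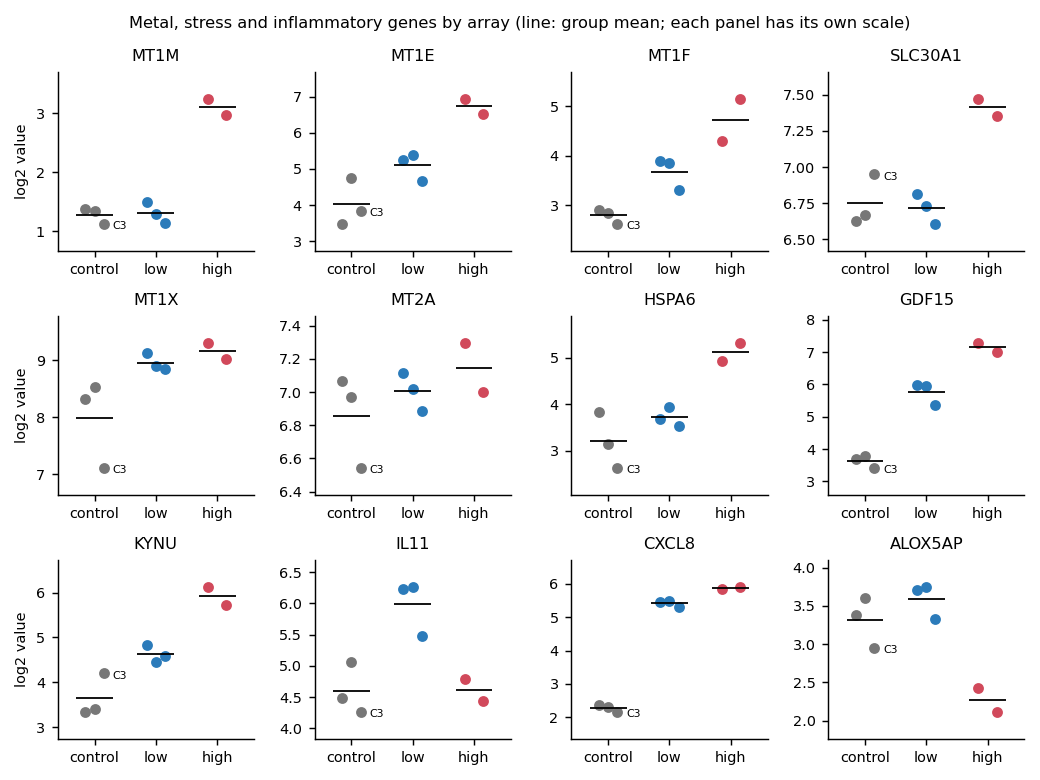
Log2 values of 12 metal, stress and inflammatory genes on each array (points; grey control, blue low, red high; the line is the group mean and each panel has its own scale), with control 3 labelled C3. MT1M lies at 1.12 to 1.50 in the controls and low arrays and at 2.96 and 3.24 in the high arrays, and GDF15 and MT1F step up from control to low to high.

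Sterol synthesis genes stood further above controls 1 and 2 in the low dose than in the high dose. Of 21 genes of cholesterol synthesis and uptake, 20 were lower in high than in low (95.2%, against 61.6% of all genes), with a median of -0.27. At an unadjusted p under 0.05, 6 were lower and 1 higher (28.6% and 4.76%, against 6.1% and 2.56% of all genes). Against controls 1 and 2 the list's median was 0.82, 0.84 and 0.47 in the low arrays and 0.56 and 0.08 in the high arrays, and -0.17 in control 3. The treated arrays overlapped on this median, with low 3 below high 1. HMGCS1, which makes the precursor of mevalonate, read 4.82, 4.71 and 4.43 in the controls, 7.22, 7.11 and 6.88 in the low dose and 6.52 and 6.0 in the high dose: all treated arrays were above all controls and the high arrays below the low arrays, a difference of -0.81 ± 0.21 (SE) (adjusted p = 0.354). LSS, which closes the sterol ring, read 5.08, 5.35 and 4.73 in the controls, 6.59, 6.55 and 5.97 in the low dose and 5.58 and 5.04 in the high dose (-1.06, SE 0.26), so that high 2 lay among the controls. EBP, a sterol isomerase, read 5.68, 5.48 and 5.03 in the controls, 5.88, 5.85 and 5.77 in the low dose and 5.02 and 4.90 in the high dose; the low arrays were above every control and the high arrays below every control, a difference of -0.87 ± 0.20 (SE). INSIG1, a sterol sensor, differed by -0.46, and DHCR7, the last enzyme of the pathway, by -0.69. HSD17B7, another enzyme of the pathway, was the 1 higher gene, 2.34, 2.24 and 2.35 in the controls, 3.20, 3.13 and 2.32 in the low dose and 3.50 and 3.39 in the high dose (0.56). All 12 fatty acid synthesis genes were lower (median -0.35), 2 of them, FASN (-0.84) and ACACA (-0.66), at p under 0.05; control 3 had a median of -0.67 for that list. The exporter ABCA1, which sends cholesterol out of the cell, differed by -1.0.

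Antioxidant genes were also mostly lower in high than in low, but the high arrays did not stand above controls 1 and 2. Of 27 NRF2 targets, 23 were lower in high than in low (85.2%, against 61.6% of all genes), with a median of -0.32 and a control 3 median of -0.40. At an unadjusted p under 0.05, 7 were lower (25.9%, against 6.1% of all genes) and 0 higher. Against controls 1 and 2 the list's median was 0.26, 0.40 and 0.16 in the low arrays and 0.04 and -0.18 in the high arrays. NQO1, a quinone reductase, read 7.70, 7.65 and 6.41 in the controls, 7.92, 7.99 and 7.62 in the low dose and 6.92 and 6.74 in the high dose, a difference of -1.02 ± 0.33 (SE) with both high arrays below controls 1 and 2 and control 3 the lowest array. AKR1C1, which reduces steroids and aldehydes, read 4.06, 3.99 and 3.68 in the controls, 4.55, 4.98 and 5.23 in the low dose and 4.03 and 3.93 in the high dose (-0.94, SE 0.22, adjusted p = 0.303); its low arrays were above all controls and its high arrays lay among them. HMOX1, heme oxygenase, read 4.47, 4.70 and 3.65 in the controls, 6.99, 7.12 and 6.49 in the low dose and 6.35 and 6.08 in the high dose: both treated groups were far above the controls and high below low, a difference of -0.65 ± 0.30 (SE) (limma adjusted p = 0.580).

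Inflammatory genes were split. Of 35 NF-κB targets and cytokines, 6 were lower and 1 higher at an unadjusted p under 0.05 (17.1% and 2.86%; median -0.20; control 3 median -0.41). IL11, a cytokine of the IL-6 family, read 4.48, 5.06 and 4.26 in the controls, 6.24, 6.27 and 5.47 in the low dose and 4.79 and 4.44 in the high dose. Only the low arrays were above all controls, and high minus low was -1.37 ± 0.29 (SE) (adjusted p = 0.300). IL6 read 4.78, 4.89 and 3.68 in the controls, 6.19, 6.0 and 5.97 in the low dose and 5.06 and 5.33 in the high dose and differed by -0.85 ± 0.31 (SE), with both treated groups above all controls. CXCL8, the neutrophil attractant IL-8, went the other way: 2.36, 2.30 and 2.16 in the controls, 5.46, 5.49 and 5.29 in the low dose and 5.84 and 5.92 in the high dose. It was more than 2 log2 units above the controls in every treated array and slightly higher in the high dose (0.46, SE 0.16). EREG, a ligand of the EGF receptor, was also higher, at 5.72, 5.72 and 6.22 in the controls, 6.48, 6.37 and 5.76 in the low dose and 7.51 and 7.07 in the high dose (1.09, SE 0.26). The interferon list had 8 higher and 3 lower of 41 genes at p under 0.05 (19.5% and 7.32%, against 2.56% and 6.1% of all genes), with a median of -0.03 and a control 3 median of -0.09. IFIT2, which binds RNA in the antiviral response, read 4.60, 4.20 and 4.86 in the controls, 4.67, 4.50 and 4.16 in the low dose and 5.69 and 5.25 in the high dose, with high above all other arrays (1.03, SE 0.24), and HERC5, the ligase for ISG15, differed by 0.73. RIGI, the RNA sensor, differed by 0.55. IFI6 and IFITM3 lay on the other side, at -0.89 and -0.54. The genes past that level thus leaned to the higher side while the list's median lay near 0.

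Stress genes differed in both directions. GDF15, a secreted stress cytokine of the TGF-β superfamily, read 3.69, 3.80 and 3.42 in the controls, 5.97, 5.95 and 5.36 in the low dose and 7.29 and 7.0 in the high dose. Low lay above control and high above low with no overlap between any groups, and high minus low was 1.38 ± 0.22 (SE) (adjusted p = 0.296). HSPA6, an inducible HSP70 with little expression in unstressed cells, read 3.84, 3.15 and 2.63 in the controls, 3.70, 3.95 and 3.53 in the low dose and 4.94 and 5.33 in the high dose; the low arrays overlapped the controls and both high arrays were above all others (1.41, SE 0.30). Control 3 was the lowest array for HSPA6. Of 17 cytosolic heat shock genes, 4 were higher (HSPA6, HSPA4L, HSPH1 and DNAJB1) and 1 lower (DNAJB4, -0.66) at an unadjusted p under 0.05. These were 23.5% and 5.88%, against 2.56% and 6.1% of all genes. The list had a median of -0.05 and a control 3 median of -0.14. DNAJB1, a co-chaperone of HSP70, differed by 0.47. The ATF4 and CHOP list had 0 higher and 3 lower genes of 34 at that level (0% and 8.82%; median -0.21, control 3 median -0.37), and DDIT3, which encodes CHOP, read 2.50, 2.52 and 2.63 in the controls, 3.86, 4.0 and 3.73 in the low dose and 4.38 and 4.07 in the high dose (0.36), while ATF3, of the immediate early list, read 3.41, 3.56 and 2.21 in the controls, 5.79, 5.85 and 5.54 in the low dose and 5.86 and 5.46 in the high dose (-0.07). Both were above the controls in every treated array. The p53 list had 1 higher gene, GDF15, and 3 lower of 24 (4.17% and 12.5%; median -0.19, control 3 median -0.34); BAX, which permeabilises mitochondria in apoptosis, differed by -0.74. KYNU, which breaks down kynurenine, read 3.34, 3.41 and 4.20 in the controls, 4.82, 4.45 and 4.59 in the low dose and 6.13 and 5.72 in the high dose (1.31, SE 0.26), ordered control, low and high, with control 3 above the other controls.

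The remaining leading genes fall outside those lists. Higher in the high dose were TC2N, at 1.67, 1.54 and 2.29 in the controls, 1.82, 1.77 and 1.91 in the low dose and 3.21 and 3.43 in the high dose (1.49, SE 0.22), RASD1, a small GTPase induced by glucocorticoids (1.18), the lectin-like receptor CLEC2B (1.15), SHCBP1 (1.02) and OTULINL (1.54). ALOX5AP, which presents arachidonic acid to 5-lipoxygenase, was the leading lower gene: 3.39, 3.61 and 2.95 in the controls, 3.71, 3.75 and 3.33 in the low dose and 2.43 and 2.11 in the high dose. Its high arrays were below all other arrays, a difference of -1.32 ± 0.23 (SE) (adjusted p = 0.300). TCN1, a vitamin B12 carrier, read 5.11, 4.92 and 4.29 in the controls, 5.27, 5.0 and 4.90 in the low dose and 3.82 and 3.66 in the high dose (-1.32, SE 0.24). LGALS12, a galectin, read 3.45, 3.35 and 2.43 in the controls, 3.48, 3.85 and 3.68 in the low dose and 2.40 and 1.72 in the high dose (-1.61, SE 0.31), and NFKBID, an atypical IκB protein, read 3.67, 3.34 and 3.49 in the controls, 3.84, 3.89 and 3.85 in the low dose and 3.04 and 2.92 in the high dose (-0.88, SE 0.17). The long non-coding RNAs named by the same rule were MIR646HG (0.63), MAPKAPK5-AS1 (0.68) and HOXD-AS2 (0.80) on the higher side, and APCDD1L-DT (-1.62), IGFL2-AS1 (-1.41) and LCIIAR (-0.82) on the lower side. A row may not distinguish an antisense transcript from a partner gene; APCDD1L, the neighbour of APCDD1L-DT and named after its value was seen, differed by -2.12.

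Lists of basic functions lay near the background of all genes (2.56% higher and 6.1% lower at an unadjusted p under 0.05). Cytosolic ribosomal proteins had 0 higher and 3 lower of 46 genes at an unadjusted p under 0.05 (median -0.11; control 3 -0.17), mitochondrial ribosomal proteins 1 and 2 of 70 (-0.05; control 3 -0.07), nuclear oxidative phosphorylation genes 0 and 4 of 63 (-0.09; control 3 -0.05), proteasome genes 0 and 0 of 27 (-0.10; control 3 0.08) and splicing genes 0 and 0 of 39 (-0.09; control 3 -0.17). Hypoxia and glycolysis genes were further down, with a median of -0.28 and a control 3 median of -0.39. Of 36, 32 were lower (88.9%, against 61.6% of all genes), and LOX, which crosslinks collagen, differed by -1.03. The median of all genes itself was -0.14 with dim genes left out. Lysosome genes had 25 of 28 lower (89.3%) and 4 at p under 0.05 (14.3%), with a median of -0.23 and a control 3 median of -0.37.

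Small RNA rows carried some of the largest differences, and control 3 shared those of the structural classes. The 2 rows given here were named after their values were seen. SNORA38B, a small nucleolar RNA, read 4.51, 4.88 and 9.78 in the controls, 5.11, 4.57 and 4.14 in the low dose and 8.54 and 8.59 in the high dose, a difference of 3.96 ± 1.17 (SE) (adjusted p = 0.397). High arrays were above all low arrays, and control 3 was above them all. VTRNA1-2, a vault RNA, read 1.17, 1.17 and 5.13 in the controls, 1.12, 1.26 and 1.78 in the low dose and 3.45 and 3.75 in the high dose (2.21, SE 0.91), again highest in control 3. The 213 snoRNA genes had 14 higher and 5 lower at an unadjusted p under 0.05 (6.57% and 2.35%, against 2.56% and 6.1% of all genes). Both high arrays lay above all low arrays in 67 of them, where 8.77% of all genes were so arranged. Their median difference was 0.19, and their median in control 3 against the other controls was 0.46. The part of these RNAs in the results above was not tested.

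The 1018 microRNA genes of the array had 34 higher and 61 lower at p under 0.05 (3.34% and 5.99%, against 2.56% and 6.1% of all genes), so they did not move as a class. A few single rows were among the most separated of the table and were named after their values were seen. Such a row may detect the primary or hairpin transcript as well as the mature RNA. MIR197 read 2.87, 3.02 and 2.58 in the controls, 2.45, 2.37 and 2.15 in the low dose and 3.61 and 4.36 in the high dose, a difference of 1.66 ± 0.23 (SE), and control 3 lay below the other controls. MIRLET7A2, 1 of several genes that give let-7a, read 6.09, 5.70 and 5.34 in the controls, 5.39, 4.91 and 5.06 in the low dose and 3.78 and 3.41 in the high dose, with low overlapping the controls, both high arrays below all others and a difference of -1.52 ± 0.24 (SE). MIR365A read 2.17, 2.66 and 2.05 in the controls, 2.34, 2.04 and 1.85 in the low dose and 0.99 and 0.68 in the high dose (-1.25, SE 0.23). Its high values lie below the lower quartile of every array (1.64 to 1.72), so the row is not shown to be above background there. MIR27A read 4.63, 5.08 and 3.23 in the controls, 5.99, 5.94 and 5.45 in the low dose and 4.48 and 3.73 in the high dose (-1.69, SE 0.45), and MIR23A, its neighbour in 1 cluster on chromosome 19, differed by -0.99. MIR222 read 6.52, 6.14 and 5.47 in the controls, 7.26, 7.17 and 6.76 in the low dose and 6.07 and 5.70 in the high dose (-1.18, SE 0.29); in MIR27A and MIR222 the low arrays were above all controls. For each gene the arm it is best known for is given from RefSeq (GRCh38.p14) with the seed, bases 2 to 8, in capitals, since the seed is what a microRNA pairs with its targets. No 2 of these 6 share a whole seed, though those of miR-23a, miR-27a and miR-197 begin alike.
hsa-miR-197-3p: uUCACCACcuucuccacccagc
hsa-let-7a-5p: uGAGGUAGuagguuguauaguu
hsa-miR-365a-3p: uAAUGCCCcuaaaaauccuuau
hsa-miR-27a-3p: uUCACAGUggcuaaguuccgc
hsa-miR-23a-3p: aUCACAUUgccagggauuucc
hsa-miR-222-3p: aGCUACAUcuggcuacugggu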

How the data were processed

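RNA of 8 arrays (3 control, 3 low dose, 2 high dose) was compared through the value table of the series. The authors deposited these values on a log2 scale. The submitters' processing notes name the Transcriptome Analysis Console, and for background correction, normalization and annotation build the status is: not given in the sources used here. Of 53617 rows, 23558 had 1 symbol in the platform's probe table, 2155 had several and 27904 had none there; for 618 symbols with several rows, the row with the largest 8-array mean stood for the gene, leaving 22109 genes. The group means were fitted with limma 3.58.1 in R 4.3.3 over all 8 arrays (lmFit, contrasts.fit, eBayes; 5 residual degrees of freedom), with Benjamini-Hochberg adjustment over all genes. Unadjusted p-values, also from limma, serve only to describe lists beside all genes. No gene was filtered out. The number of arrays limits the precision. The fit was tested on simulated data. The groups, gene lists and promoter motifs were chosen with earlier results of these data known, so the lists carry no test of their own.

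Named genes were, in each direction, the called genes and then those with the smallest p among genes with non-overlapping arrays, up to 10, leaving out small RNAs, pseudogenes, uncharacterized genes and receptor segments; up to 4 per list by p and any list member differing by at least 1; and up to 3 long non-coding RNAs. Other genes named by value belong to the list under description or are said to have been named after their values were seen. Alternatives changed the arrays in the fit, the normalization, the filter on dim genes, the prior variance, array weights, the replicate block, the row kept and each array left out. Promoters and microRNA sequences came from RefSeq tables (GRCh38.p14).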

Additional observations from a re-analysis of the deposited data

Results flagged for a closer look

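A gene is given here where the direct test of high against low passed, or where the treated groups lay on opposite sides of all controls. MT1M passed the limma test with a difference of 1.79; its low arrays lay among the controls. Among the 221 named genes, 7 had all low arrays above all controls and all high arrays below all controls, and 0 had the reverse arrangement. Many of the named genes were chosen for a small p or non-overlapping high and low arrays in these same data. The arrangements were not counted over all genes, so these counts do not show how common either is. The differences were -1.06 for VSTM4, -1.05 for CEP295NL, -0.88 for NFKBID, -1.61 for LGALS12, -1.05 for ARHGEF35, -0.85 for PI16 and -0.87 for EBP. For these 7 genes the difference did not pass the adjusted threshold. The high arrays read 1.86 and 1.55 for VSTM4, 1.43 and 1.23 for ARHGEF35 and 1.76 and 1.94 for PI16. High 2 read 1.72 for LGALS12. Those values lie within or below the range of the absent marker ESR1 (1.60 to 2.18), so they are not shown to be above background.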

How the results depend on the processing

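The count of genes called was 1 as reported and depended on which arrays set the spread. It was 53 with the 5 treated arrays only (29 higher, 24 lower), 69 with array weights (17 higher, 52 lower), 220 without control 3, low 3 and high 2 together (93 higher, 127 lower), and 2 after quantile normalization (2 higher, GDF15 and MT1M). Limma called 0 genes with dim genes left out (which removes MT1M itself), with every row of the table tested, without eBayes moderation, and without low 3 and high 2 together; the unadjusted counts in those settings were 307 higher and 934 lower, 1249 and 2425, 499 and 979, and 595 and 1003. Subtracting array medians, an intensity trend, a robust prior and the mean of a symbol's rows each called 1, MT1M. Leaving out 1 array at a time gave counts from 0 to 174 (higher 0 to 74, lower 0 to 100). The highest came without control 3. The count was 0 without control 1, control 2, low 1, low 2, low 3 or high 2, and 1 without high 1, which was RN5S234 and not MT1M.

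The medians of the G2/M list (0.59 to 0.89) and the mesenchymal and matrix list (-0.78 to -0.38) kept their sign in all 21 settings fitted to genes. Settings that altered only the estimate of spread or left out only controls keep every difference as it was, so they could not move these medians. The matrix median was -0.78 with dim genes left out and ranged from -0.76 to -0.38 when 1 array was left out. Medians of smaller lower lists also stayed below 0 but came nearer to it in some settings. They ranged from -0.39 to -0.14 for hypoxia and glycolysis, -0.40 to -0.12 for lysosome and -0.48 to -0.14 for YAP and TEAD targets. Integrins and laminins ranged from -0.45 to -0.07, and fatty acid synthesis from -0.52 to -0.26. Among named genes, PSMD3 turned to 0.0366 with the mean of its rows. H2BC18 ranged from -0.792 without high 1 to 0.0961 without high 2, and ERBB4 from 0.743 without high 1 to -0.00521 without high 2. Without low 3 and high 2 together, with or without control 3, they were 0.0117 and -0.0854. None of these was called, and the cause was not tested.

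Low and high share replicate numbers 1 and 2 only, and nothing in the labels says that a number marks a shared culture or day. Because the labels give no pairing, the block served only as an alternative. Deviations from the group means correlated at r = 0.21 for the pair numbered 1 and -0.18 for the pair numbered 2. With 2 high arrays, the deviations of high 1 and high 2 are equal and opposite, so these values cannot show whether the numbers pair the arrays. With the number as a replicate block, limma called 219 genes over 8 arrays (21 higher, 198 lower; matrix median -0.78) and 1653 over the 5 treated arrays (273 higher, 1380 lower; matrix median -0.76). In the fit on the 5 treated arrays low 3 has no partner and leaves the comparison, while over 8 arrays it shares its number with control 3.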
